A study of Mus musculus with 40 samples.

Results

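The acute-phase genes Lcn2, Saa1, Saa2, Saa3, Hp, Ptx3 and Serpina3n and the leukocyte adhesion genes Vcam1 and Icam1 were examined by name in the transcriptome of cultured mouse cardiac fibroblasts. They are 9 of the 55414 gene identifiers in the count table. Of these identifiers, 25210 had at least 10 counts over all libraries and were tested, and each of the 9 genes was among them. Saa1 and Saa2 were close to the detection limit, with 322 and 423 counts over 40 libraries and 0 counts in 15 and 23 of them. The 9 genes and the gene lists further below were chosen with earlier results of these data known. Shares of all genes set beside their counts are therefore a description and no test of the gene families.

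Acute-phase proteins are the secreted proteins whose synthesis climbs during inflammation, mostly in the liver but also locally in stromal cells. Lipocalin 2 (Lcn2) binds bacterial siderophores, the serum amyloid A proteins (Saa1, Saa2, Saa3) are lipid-binding apolipoproteins, haptoglobin (Hp) captures free hemoglobin, pentraxin 3 (Ptx3) is a soluble pattern recognition molecule, and Serpina3n is a serine protease inhibitor. VCAM1 and ICAM1 are immunoglobulin superfamily proteins of the cell surface that bind integrins on leukocytes. TAK1, encoded by Map3k7, is a kinase that links the receptors for IL-1β and TNFα to the NF-κB and stress kinase pathways.

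Fibroblasts came from adult C57BL/6J TAK1 fl/fl mice, which carry LoxP sites around exon 2 of Map3k7, and were used at passage 1. They were transduced with an adenovirus encoding LacZ (TAK1 intact) or iCre (TAK1 deleted), both under the CMV promoter. Under serum starvation they then spent 24 h without ligand (Con) or with 1 of 4 ligands, namely IL-1β at 15 ng/ml, bFGF at 20 ng/ml, or TNFα or TGFβ, each at 10 ng/ml. Each of the 10 combinations of virus and ligand had 4 replicates, and every group, controls included, carried the floxed allele and a virus. The study describes the replicates as biological ones from male mice. The labels tie no library to an animal, and p-values measure the spread between these samples. In such bulk RNA, fewer cells of a type and less RNA per cell cannot be told apart.

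To show which letters the regulatory starts of these genes share, the bases upstream of the RefSeq transcription start (GRCm38.p6) are given for 5 of the 7 genes with an entry, those in which one of the letter patterns below lies outside annotated exons. Vcam1 and Hp had no entry. Capitals mark the C/EBP letters TTNNGCAA or the STAT letters TTCNNNGAA, in either orientation. Saa1 (chr7:46742981-46743230 on the minus strand) and Saa2 (chr7:46751583-46751789 on the plus strand) lie head to head, Saa3 (chr7:46715701-46715926 on the minus strand) stands beside them, and Ptx3 (chr3:66219637-66219886 on the plus strand) and Icam1 (chr9:21015690-21015939 on the plus strand) lie on other chromosomes. The final 43 bases of the Saa2 stretch and 24 of the Saa3 stretch, which overlap annotated exons, were left out.
Saa1: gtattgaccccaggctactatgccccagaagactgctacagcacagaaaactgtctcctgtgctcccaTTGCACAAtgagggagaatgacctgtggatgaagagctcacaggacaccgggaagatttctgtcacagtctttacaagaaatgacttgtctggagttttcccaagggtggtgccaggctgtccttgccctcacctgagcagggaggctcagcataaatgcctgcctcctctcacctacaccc
Saa2: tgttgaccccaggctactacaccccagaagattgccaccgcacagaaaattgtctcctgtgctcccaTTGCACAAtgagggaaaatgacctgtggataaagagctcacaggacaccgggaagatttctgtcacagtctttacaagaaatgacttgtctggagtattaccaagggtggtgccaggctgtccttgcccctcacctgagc
Saa3: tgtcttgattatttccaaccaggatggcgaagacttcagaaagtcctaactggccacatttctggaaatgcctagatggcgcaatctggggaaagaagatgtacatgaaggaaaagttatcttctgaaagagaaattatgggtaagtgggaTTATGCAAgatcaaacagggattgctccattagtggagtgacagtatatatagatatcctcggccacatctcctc
Ptx3: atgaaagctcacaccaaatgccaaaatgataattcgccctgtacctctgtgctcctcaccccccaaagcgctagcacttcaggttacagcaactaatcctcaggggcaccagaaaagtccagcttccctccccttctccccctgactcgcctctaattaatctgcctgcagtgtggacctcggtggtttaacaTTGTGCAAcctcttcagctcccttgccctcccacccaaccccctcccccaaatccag
Icam1: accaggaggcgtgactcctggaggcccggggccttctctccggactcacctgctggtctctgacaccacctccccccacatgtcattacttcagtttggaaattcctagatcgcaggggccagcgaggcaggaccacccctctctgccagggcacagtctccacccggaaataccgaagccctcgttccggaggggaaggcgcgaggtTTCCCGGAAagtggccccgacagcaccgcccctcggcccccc

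The C/EBP letters occurred within 250 bases upstream of 5 of the 7 genes (Lcn2, Saa1, Saa2, Saa3 and Ptx3), beside 9.56% of 32851 mouse promoters of that length. They stood 182 to 175 bases before the start of Saa1, 183 to 176 before Saa2, 99 to 92 before Saa3, 57 to 50 before Ptx3 and 216 to 209 before Lcn2, where the bases also belong to an annotated exon. The printed stretches of Saa1 and Saa2 are much alike and both hold TTGCACAA, so their matches are not independent of each other. The STAT letters were found for Icam1 alone among the 7, at 42 to 34 bases, and in 7.02% of all promoters. The strict κB consensus, which begins with GGG and ends with CC, was in 0 of the 7 windows and in 7.25% of all (stretches that differ from it in a single letter were not counted), and TATAAA in 0 of the 7 and in 12.4% of all. These are matches of letters, which show neither binding nor its absence.

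Library totals ran from 25360947 to 66160732 counts, with a median of 36183962. Map3k7 served to check the deletion: it ranged from 144 to 251 CPM (counts relative to a library size scaled for composition) in the 20 LacZ libraries and from 122 to 160 in the 20 iCre libraries. Under IL-1β the LacZ libraries held 237, 199, 211 and 233 CPM of it, against 129, 124, 122 and 129.9 CPM for iCre, in the order of replicates 1 to 4 (log2 -0.82, SE 0.09, adjusted p = 0.000274, quasi-likelihood test of edgeR). Under TNFα they held 251, 209, 243 and 251, against 150.1, 126, 145 and 155 CPM (log2 -0.71, SE 0.10, adjusted p = 0.000829). Without ligand the ranges were 144 to 159 and 123 to 133 CPM (log2 -0.28, SE 0.07, adjusted p = 0.137, or log2 -0.28, adjusted p = 0.00393 when blocked by replicate number). Whole-gene counts include exons that remain after recombination, so they bound the deletion only loosely. All 10 fibroblast markers were detected in every library, with sums of 15351 to 69714 CPM. The fibroblast sum was lower in iCre than in LacZ libraries with IL-1β (22845 to 35690.4 against 36618 to 69714 CPM) and with TNFα (15351 to 23387 against 25795 to 34599 CPM), without overlap, and it was lower in 4 of 4 pairs without ligand and with bFGF and in 3 of 4 with TGFβ. Its part in the virus differences of the 9 genes was not tested. By the library names, replicate 1 of every group belongs to a number series apart from replicates 2 to 4, and in each series all LacZ libraries come before all iCre libraries, so within a series virus and library order cannot be told apart. Libraries of the same replicate number deviated together from their group means, as set out in the methods, and calls of the 9 genes that change when the replicate number is fitted as a block are named beside the results. With 4 replicates per group, p-values of the block fit lean on a variance that edgeR shares between genes. Very small ones therefore do not measure the replication of a single gene.

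IL-1β raised almost every one of these genes in TAK1-intact fibroblasts. Of the 9 genes, 8 rose and 0 fell, beside 11.1% of all tested genes that rose (3010 of 15366 under edgeR's own low-count filter). The same 8 had LacZ IL-1β values that did not overlap the LacZ Con values, beside 12.4% of all genes in that direction. The median log2 fold change over the 9 genes was 4.30, against -0.10 over all genes tested.

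Lcn2 (ENSMUSG00000026822, chr2:32384633-32388252, GRCm38) and Saa3 (ENSMUSG00000040026, chr7:46711998-46715700) moved most. Lcn2 was 1.54, 6.13, 3.55 and 4.07 CPM in the 4 LacZ Con libraries and 3946, 1948, 2849.5 and 3238 CPM with IL-1β, in the order of replicates 1 to 4, which is 794-fold (log2 9.63, SE 0.48, adjusted p = 2.89e-06). The groups were far apart, with the lowest ratio between same-numbered libraries at 318. Saa3 went from 2.05, 7.2, 1.37 and 4.62 to 5162, 4115, 4438 and 4184 CPM, which is 1199-fold (log2 10.23, SE 0.58, adjusted p = 4.57e-06). The stimulated Saa3 values lay close together, whereas the controls were spread from 1.37 to 7.2 CPM.

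The other serum amyloid genes followed at far smaller levels. Saa1 (ENSMUSG00000074115, chr7:46740497-46742980) had 2, 8, 3 and 2 counts in LacZ Con and 45, 78, 44 and 61 counts with IL-1β (log2 4.30, SE 0.43, adjusted p = 0.000138). Saa2 (ENSMUSG00000057465, chr7:46751790-46754313) had 0, 6, 0 and 0 and 55, 101, 62 and 102 counts (log2 6.02, SE 0.77, adjusted p = 0.000584). Every stimulated library exceeded every control for both genes, but the 6 control counts of Saa2 came from replicate 2 alone. Saa1 and Saa2 share 8.96% and 8.63% of the distinct 100-base windows of their transcripts, so reads may be split between them or dropped, and their values are uncertain one by one. With their counts summed, the log2 fold change was 5.09 (SE 0.52, adjusted p = 0.000154). Saa3 shares no such window with either.

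Hp, the hemoglobin scavenger (ENSMUSG00000031722, chr8:109575128-109579172), was 1.83, 11, 3.74 and 5.75 CPM in LacZ Con and 276, 269, 276 and 295 CPM with IL-1β (50.8-fold, log2 5.67, SE 0.46, adjusted p = 4.01e-05). Ptx3 (ENSMUSG00000027832, chr3:66219910-66225805) was 52.3, 20.4, 41.7 and 51.7 and 1022, 196, 449 and 597 CPM (13.7-fold, log2 3.78, SE 0.50, adjusted p = 0.000653). For Hp the 4 stimulated libraries agreed within a narrow band, while for Ptx3 replicate 2 was lowest in both groups. Serpina3n (ENSMUSG00000021091, chr12:104406729-104414329) already stood high without ligand, at 1359, 484, 1155 and 907 CPM, and was 2649, 954, 2078 and 2007 CPM with IL-1β. These groups overlapped and the difference missed the threshold (log2 0.98, SE 0.35, adjusted p = 0.0784), but it passed when blocked by replicate number (log2 1.00, adjusted p = 2.56e-11), and each replicate was higher than its own control.

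Both adhesion genes rose with IL-1β by smaller factors. Vcam1 (ENSMUSG00000027962, chr3:116109949-116129688) was 698, 717, 692 and 629.8 CPM in LacZ Con and 2735, 1919, 2167 and 2122 CPM with IL-1β (3.3-fold, log2 1.72, SE 0.14, adjusted p = 3.52e-05). Icam1 (ENSMUSG00000037405, chr9:21015985-21028817) was 87.9, 51.7, 98.1 and 137 and 236, 182, 316 and 403 CPM (3.05-fold, log2 1.61, SE 0.31, adjusted p = 0.00503). For neither gene did the groups overlap. Antisense genes share 11.7% of the exonic bases of Icam1 (Gm47079, 367 counts in all) and 0.688% of those of Vcam1 (Gm43109, 293 counts).

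**Figure D1:**
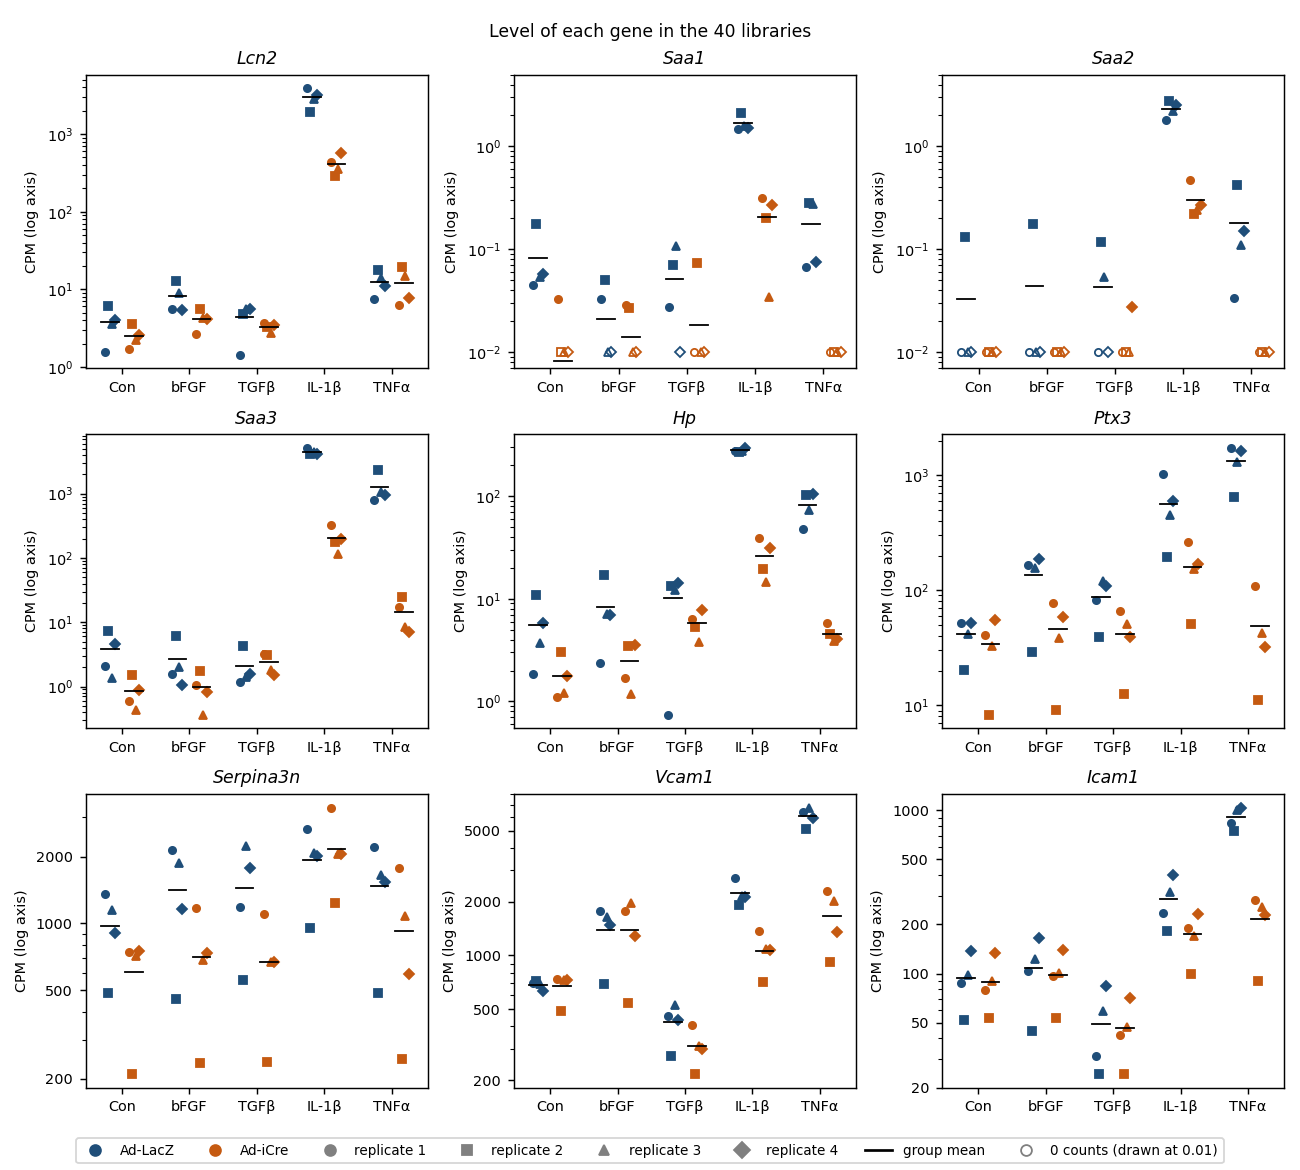
Level of each of the 9 genes in all 40 libraries, in CPM on a log axis, by virus and ligand, with 1 point per library, a line at the group mean and libraries with 0 counts as open points at 0.01 CPM. Lcn2 and Saa3 stand highest in LacZ fibroblasts with IL-1β, at means of 2995 and 4475 CPM, whereas Vcam1, Icam1 and Ptx3 stand highest in LacZ fibroblasts with TNFα, at 6041, 907 and 1327 CPM.

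TNFα raised a different balance of the genes, with Vcam1 and Icam1 above their IL-1β levels and Lcn2 far below its own. Of the 9 genes, 6 rose and 0 fell, beside 10.9% of all tested genes that rose (3104 of 15235 under edgeR's own low-count filter). The same 6 did not overlap LacZ Con (12.5% of all genes). The median log2 fold change was 3.14 over the 9 genes and -0.08 over all genes.

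Vcam1 was 6402, 5089.6, 6741 and 5934 CPM with TNFα, which is 8.84-fold over LacZ Con (log2 3.14, SE 0.13, adjusted p = 8.98e-07). Icam1 was 842, 743, 1005 and 1039 CPM (9.67-fold, log2 3.27, SE 0.27, adjusted p = 5.21e-05). Ptx3 was 1732, 647, 1311 and 1617 CPM (31.9-fold, log2 5.0, SE 0.41, adjusted p = 4.49e-05). For all of these the lowest TNFα library exceeded the highest control severalfold, although replicate 2 was again the lowest. Saa3 was 799, 2290.2, 1072 and 949 CPM (339-fold, log2 8.41, SE 0.66, adjusted p = 3.5e-05), with replicate 2 the highest. Hp was 47.8, 102, 73.2 and 106 CPM (14.8-fold, log2 3.89, SE 0.49, adjusted p = 0.000542).

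Lcn2, by contrast, was only 7.53, 17.5, 14 and 10.9 CPM with TNFα (3.29-fold, log2 1.72, SE 0.38, adjusted p = 0.0104). The call was lost without replicate 3 (adjusted p = 0.0828) and without replicate 4 (adjusted p = 0.0569). Saa1 had 2, 8, 10 and 2 counts and Saa2 1, 12, 4 and 4 counts, which overlapped the controls (log2 1.07, SE 0.68, adjusted p = 0.315 and log2 2.31, SE 1.18, adjusted p = 0.207, respectively). Serpina3n was 2210.5, 488, 1648 and 1539.6 CPM (log2 0.59, SE 0.43, adjusted p = 0.383), a difference that passed with the replicate block (log2 0.50, adjusted p = 0.000112).

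Set directly against each other in LacZ fibroblasts, IL-1β gave higher levels than TNFα for 5 of the 9 genes (Lcn2, Saa1, Saa2, Saa3 and Hp), beside 4.84% of all genes, and lower levels for Vcam1 and Icam1, beside 4.78%. Lcn2 was 239.7-fold higher with IL-1β (log2 7.90, SE 0.36, adjusted p = 1.76e-06), Saa2 13-fold (log2 3.70, SE 0.51, adjusted p = 0.0013), Saa1 9.2-fold (log2 3.20, SE 0.44, adjusted p = 0.0013), Saa3 3.51-fold (log2 1.81, SE 0.30, adjusted p = 0.00387) and Hp 3.4-fold (log2 1.77, SE 0.21, adjusted p = 0.000551). Vcam1 was 2.7-fold lower with IL-1β (log2 -1.43, SE 0.16, adjusted p = 0.000409) and Icam1 3.19-fold lower (log2 -1.67, SE 0.23, adjusted p = 0.00115). The Saa3 call was lost without replicate 3 (adjusted p = 0.053). Ptx3 was lower and Serpina3n higher with IL-1β when the replicate block was fitted (log2 -1.37, adjusted p = 2.58e-12 and log2 0.48, adjusted p = 1.86e-05, respectively), and without it Ptx3 gave log2 -1.23, SE 0.44, adjusted p = 0.128 and Serpina3n log2 0.38, SE 0.41, adjusted p = 0.652. Ptx3 was also lower by DESeq2 and without replicate 2.

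**Figure D2:**
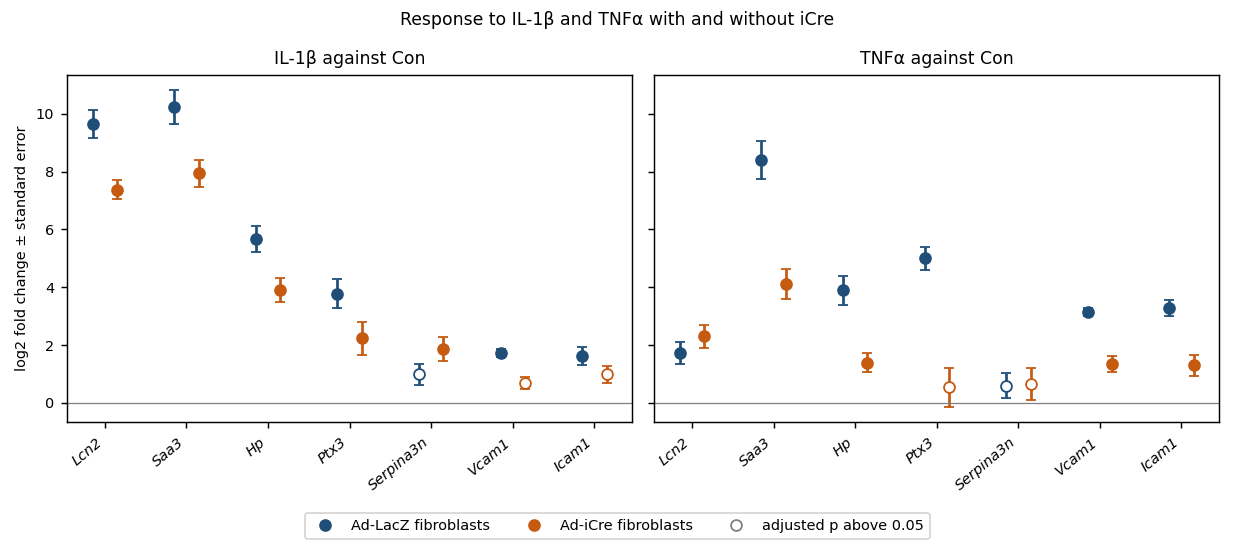
Log2 fold change of 7 of the genes (without Saa1 and Saa2, whose counts are low) with IL-1β or TNFα over the unstimulated group of the same virus, LacZ and iCre side by side, with error bars of 1 standard error of the edgeR fit and open points where the adjusted p was above 0.05. IL-1β gives the largest changes for Lcn2 (9.63 in LacZ and 7.38 in iCre) and Saa3 (10.23 and 7.94), and with TNFα Lcn2 changes far less (1.72 and 2.30).

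With TGFβ in LacZ fibroblasts, 1 gene rose and 1 fell, beside 36.9% of all genes that changed in either direction. Ptx3 was 82.2, 39.2, 120.2 and 109 CPM (log2 1.09, SE 0.36, adjusted p = 0.0387), a call lost without replicate 1, 3 or 4 (adjusted p = 0.0787, 0.175 and 0.109) and with all 40 libraries in 1 fit (adjusted p = 0.191). Vcam1 was 455, 272, 527 and 437 CPM (log2 -0.68, SE 0.18, adjusted p = 0.0126), a call lost without replicate 4 (adjusted p = 0.0542) and with all 40 libraries in 1 fit (adjusted p = 0.0605). Each TGFβ library held less Vcam1 than every control. With the replicate block the count was 5 (beside 42.0% of all genes), with Icam1 (log2 -0.99, adjusted p = 6.16e-05) and Saa3 (log2 -0.75, adjusted p = 0.0289) added as lower and Serpina3n as higher (log2 0.50, adjusted p = 0.038).

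With bFGF, a growth factor that the cells had also received in their growth medium, Vcam1 alone passed, beside 11.6% of all genes. Vcam1 was 1770.2, 691, 1645 and 1484 CPM (log2 1.05, SE 0.25, adjusted p = 0.023), with replicate 2 at the level of the controls, and the call was lost without replicate 1, 3 or 4 (adjusted p = 0.116, 0.174 and 0.164). With the replicate block 5 genes rose (beside 14.2% of all genes), which added Ptx3 (log2 1.52, adjusted p = 4.23e-06), Lcn2 (log2 1.17, adjusted p = 0.000148), Hp (log2 0.59, adjusted p = 0.00402) and Serpina3n (log2 0.43, adjusted p = 0.00382).

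In TAK1-deleted fibroblasts IL-1β still raised most of the genes. Of the 9 genes, 7 rose over iCre Con and 0 fell, beside 9.38% of all genes that rose, and 6 did not overlap (11.9% of all genes). The median log2 fold change was 3.90 over the 9 genes, or 3.82 with Saa2 at its bound, and 0.00 over all genes. Lcn2 was 1.7, 3.61, 2.21 and 2.61 CPM in iCre Con and 439, 292, 353 and 573 CPM with IL-1β (166-fold, log2 7.38, SE 0.32, adjusted p = 7.48e-06). Saa3 was 0.589, 1.53, 0.439 and 0.869 and 321, 176, 115 and 198 CPM (245-fold, log2 7.94, SE 0.47, adjusted p = 2.78e-05). Between libraries of the same number the increase of Lcn2 ranged from 80.7- to 258-fold and that of Saa3 from 115- to 545-fold.

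Hp was 1.11, 3.03, 1.2 and 1.77 CPM in iCre Con and 39.4, 19.5, 14.5 and 30.9 CPM with IL-1β (log2 3.90, SE 0.41, adjusted p = 0.000376). Ptx3 was 41.1, 8.29, 32.6 and 55.1 and 261, 51.3, 153 and 169 CPM (log2 2.23, SE 0.57, adjusted p = 0.0243). Serpina3n was 745, 209, 712 and 750.3 and 3320.2, 1239.9, 2048 and 2062 CPM (log2 1.86, SE 0.41, adjusted p = 0.0123). The Ptx3 groups overlapped through replicate 2 and the other groups did not. Without replicate 1, 3 or 4 the Ptx3 call was lost (adjusted p = 0.122, 0.125 and 0.0651), and so was that of Serpina3n (adjusted p = 0.063, 0.0681 and 0.0547).

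Saa1 had 1, 0, 0 and 0 counts in iCre Con and 17, 11, 2 and 10 with IL-1β (adjusted p = 0.0215, lost without replicate 1, 2 or 4 at 0.1, 0.0546 and 0.118). Saa2 had 0 counts in iCre Con and 25, 12, 14 and 10 with IL-1β, at least 14.2-fold higher than a floor of 3 counts over the group (adjusted p = 0.00428). Of the adhesion genes, Vcam1 was 737, 490.2, 733 and 728 CPM without and 1379, 709, 1085 and 1074 CPM with IL-1β (log2 0.68, SE 0.21, adjusted p = 0.0517) and Icam1 78.8, 53.6, 90.3 and 134 and 191, 99.7, 170.2 and 233 CPM (log2 0.98, SE 0.30, adjusted p = 0.0515). Both passed with the replicate block (log2 0.66, adjusted p = 1.34e-14 and log2 0.99, adjusted p = 3.94e-26).

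With TNFα, 5 of the 9 genes rose over iCre Con and 0 fell, beside 14.7% of all genes that rose. Saa3 was 17.2, 24.4, 8.33 and 6.94 CPM (17.1-fold, log2 4.10, SE 0.52, adjusted p = 0.000499), Lcn2 6.21, 19.7, 15 and 7.81 CPM (4.92-fold, log2 2.30, SE 0.39, adjusted p = 0.00188) and Vcam1 2313, 921, 2031 and 1352 CPM (2.52-fold, log2 1.33, SE 0.28, adjusted p = 0.00564). Hp was 5.75, 4.52, 3.89 and 4.05 CPM (2.63-fold, log2 1.39, SE 0.33, adjusted p = 0.0107) and Icam1 284, 90.3, 255 and 229.6 CPM (2.47-fold, log2 1.30, SE 0.36, adjusted p = 0.0228). The Icam1 groups overlapped through replicate 2 and those of the other 4 genes did not. The Hp call was lost without replicate 1, 3 or 4 (adjusted p = 0.0511, 0.0632 and 0.0586) and with all 40 libraries in 1 fit (0.0705) and the Icam1 call without replicate 1 or 3 (adjusted p = 0.111 and 0.13). Ptx3, at 108, 11.2, 42.5 and 32 CPM, overlapped its controls (log2 0.53, SE 0.66, adjusted p = 0.595), and its difference was -0.13 without replicate 1. Saa1 and Saa2 were at 0 counts in all 4 libraries, so no fold is given.

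TGFβ was followed by higher Saa3 and Hp and lower Vcam1 and Icam1 in iCre fibroblasts, 4 of 9 genes beside 37.4% of all genes. Saa3 was 3.21, 3.11, 1.83 and 1.52 CPM (log2 1.52, SE 0.43, adjusted p = 0.0169) and Hp 6.38, 5.29, 3.82 and 7.74 CPM (log2 1.73, SE 0.35, adjusted p = 0.0027). Vcam1 was 409, 215, 312 and 299.5 CPM (log2 -1.10, SE 0.20, adjusted p = 0.00135) and Icam1 42.3, 24.1, 47 and 71.1 CPM (log2 -0.93, SE 0.33, adjusted p = 0.0465). Hp and Vcam1 did not overlap iCre Con, while Saa3 and Icam1 did. Without replicate 1 or 3 the calls of Saa3 (adjusted p = 0.108 and 0.0571) and Icam1 (adjusted p = 0.128 and 0.149) were lost. The Icam1 call was also lost with all 40 libraries in 1 fit (adjusted p = 0.0586).

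With bFGF, 0 of the 9 genes passed over iCre Con by edgeR's quasi-likelihood test, beside 2.42% of all genes. An unadjusted p under 0.05 was found for 2 (beside 4213 of all 25210 genes), and DESeq2 called 1 (Vcam1, beside 7.93% of all genes). Vcam1 was 1787, 540.3, 1964 and 1281 CPM (log2 1.06, SE 0.34, adjusted p = 0.149). With the replicate block Vcam1 (log2 0.93, adjusted p = 0.00028), Lcn2 (log2 0.73, adjusted p = 0.00452) and Ptx3 (log2 0.37, adjusted p = 0.0376) rose, beside 9.28% of all genes.

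The comparison of iCre with LacZ under the same ligand asks how far the level of each gene differed with the virus. Every group carried the floxed allele, so loss of TAK1 cannot be told apart from other effects of iCre. With IL-1β, 7 of the 9 genes were lower in iCre fibroblasts and 0 were higher, beside 8.98% of all genes that were lower (2591 of 15134 under edgeR's own low-count filter). The exceptions were Icam1 and Serpina3n. The median log2 difference was -2.87 over the 9 genes and 0.04 over all genes, and 6 of the 9 did not overlap (10.4% of all genes in that direction).

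With IL-1β, Saa3 was 321, 176, 115 and 198 CPM in iCre against 5162, 4115, 4438 and 4184 CPM in LacZ libraries, 22.4-fold lower (log2 -4.48, SE 0.31, adjusted p = 3.1e-05). Hp was 39.4, 19.5, 14.5 and 30.9 against 276, 269, 276 and 295 CPM, 10.8-fold lower (log2 -3.43, SE 0.28, adjusted p = 7.24e-05). Lcn2 was 439, 292, 353 and 573 against 3946, 1948, 2849.5 and 3238 CPM, 7.32-fold lower (log2 -2.87, SE 0.27, adjusted p = 0.000152). For these genes the highest iCre library stayed below the lowest LacZ library, and the iCre mean was 4.52%, 9.35% and 13.8% of the LacZ mean. Ratios of LacZ to iCre between same-numbered libraries ran from 16.1 to 38.7 for Saa3, 7.01 to 19 for Hp and 5.65 to 9 for Lcn2. Saa1 was 8.28-fold lower (log2 -3.05, SE 0.49, adjusted p = 0.00237) and Saa2 7.8-fold lower (log2 -2.96, SE 0.32, adjusted p = 0.000262), and with their counts summed the log2 difference was -3.00 (SE 0.32, adjusted p = 0.000255).

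Ptx3 with IL-1β was 261, 51.3, 153 and 169 CPM in iCre and 1022, 196, 449 and 597 CPM in LacZ libraries (3.61-fold lower, log2 -1.85, SE 0.53, adjusted p = 0.0391). The groups overlapped, but each iCre library was lower than the LacZ library of its number, by 2.93 to 3.91-fold. The call was lost without replicate 1, 3 or 4 (adjusted p = 0.0613, 0.147 and 0.143). Serpina3n, at 3320.2, 1239.9, 2048 and 2062 CPM in iCre fibroblasts, gave log2 0.16, SE 0.34, adjusted p = 0.815, and its iCre mean was 113% of the LacZ mean.

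Vcam1 with IL-1β was 1379, 709, 1085 and 1074 CPM in iCre libraries, 2.13-fold lower than in LacZ (log2 -1.09, SE 0.21, adjusted p = 0.00592), with no overlap. The call was lost without replicate 3 (adjusted p = 0.0537) and with a correction for GC content (log2 -0.57, adjusted p = 0.146), while the correction and the replicate block together kept it (log2 -0.61, adjusted p = 0.000105). Icam1 was 191, 99.7, 170.2 and 233 CPM in iCre libraries (log2 -0.72, SE 0.28, adjusted p = 0.115) and overlapped LacZ, but it was lower with the replicate block (log2 -0.73, adjusted p = 4.23e-06), with pair ratios of 1.23 to 1.86.

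With TNFα, 7 of the 9 genes were lower in iCre than in LacZ fibroblasts and 0 were higher, beside 12.6% of all genes (under edgeR's own low-count filter 5 of the 9, beside 3565 of 14848 genes). The exceptions here were Lcn2 and Serpina3n. The same 7 did not overlap, beside 14.0% of all genes in that direction. The median log2 difference was -4.15, or -3.25 with Saa1 and Saa2 at their bounds, and 0.00 over all genes.

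Saa3 with TNFα was 17.2, 24.4, 8.33 and 6.94 CPM in iCre against 799, 2290.2, 1072 and 949 CPM in LacZ libraries, 88.3-fold lower (log2 -6.46, SE 0.55, adjusted p = 9.91e-05). Ptx3 was 108, 11.2, 42.5 and 32 against 1732, 647, 1311 and 1617 CPM, 26.9-fold lower (log2 -4.75, SE 0.66, adjusted p = 0.000791). Hp was 5.75, 4.52, 3.89 and 4.05 against 47.8, 102, 73.2 and 106 CPM, 17.7-fold lower (log2 -4.15, SE 0.27, adjusted p = 4.48e-05). The iCre means of these secreted proteins' genes were 1.11%, 3.65% and 5.55% of the LacZ means, and the pair ratios were 46.5 to 137 for Saa3, 16 to 58 for Ptx3 and 8.32 to 26.1 for Hp. Saa1 (22 counts in LacZ, 0 in iCre) was at least 9.94-fold lower (adjusted p = 0.0121) and Saa2 (21 and 0 counts) at least 9.49-fold lower (adjusted p = 0.0196), against a floor of 3 counts over the group. The Saa1 call was lost without replicate 3 (adjusted p = 0.0799) and the Saa2 call without replicate 2, 3 or 4 (adjusted p = 0.0589, 0.0798 and 0.0743).

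The adhesion genes were lower by less. Vcam1 was 2313, 921, 2031 and 1352 CPM in iCre against 6402, 5089.6, 6741 and 5934 CPM in LacZ libraries, 3.6-fold lower (log2 -1.85, SE 0.28, adjusted p = 0.00114). Icam1 was 284, 90.3, 255 and 229.6 against 842, 743, 1005 and 1039 CPM, 4.16-fold lower (log2 -2.06, SE 0.31, adjusted p = 0.00114). Neither overlapped, and their iCre means were 27.4% and 23.7% of the LacZ means. Lcn2 was 6.21, 19.7, 15 and 7.81 CPM in iCre and 7.53, 17.5, 14 and 10.9 CPM in LacZ libraries (log2 -0.02, SE 0.37, adjusted p = 1), with neither group above the other. Serpina3n was 1771, 244, 1081 and 595 CPM in iCre libraries (log2 -0.65, SE 0.58, adjusted p = 0.446), and was lower only with the replicate block (log2 -0.80, adjusted p = 0.00547).

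**Figure D3:**
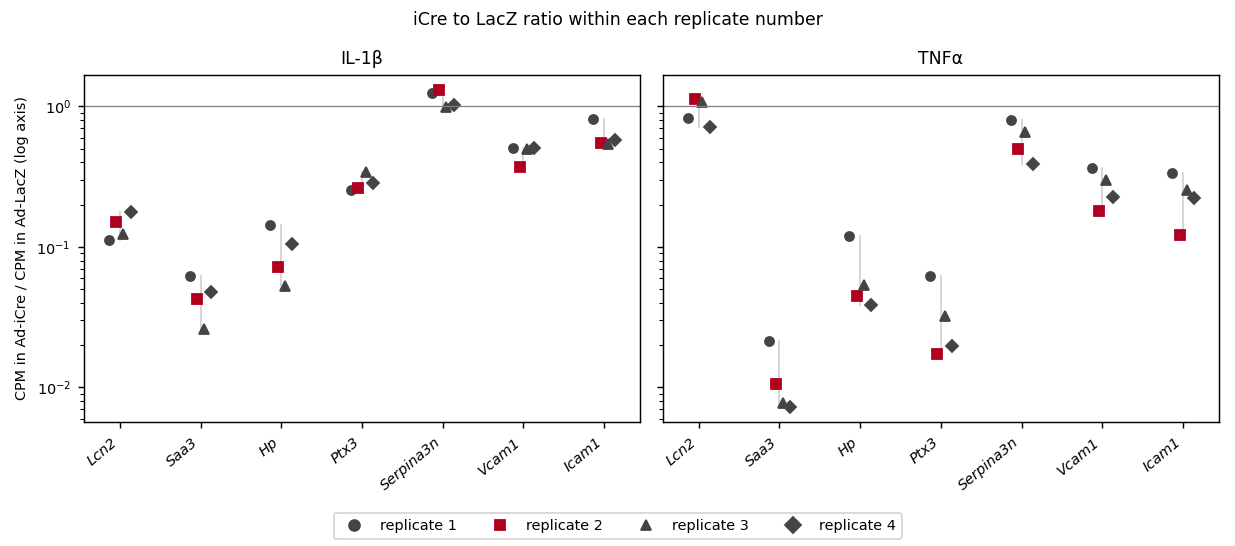
Ratio of the iCre to the LacZ level between libraries of the same replicate number, for IL-1β and TNFα, on a log axis, with 1 point per pair, for the same 7 genes. With IL-1β all 4 pairs lie below equality for Lcn2, Saa3, Hp, Ptx3, Vcam1 and Icam1, and with TNFα Saa3 lies lowest, 46.5 to 137-fold below LacZ, while Lcn2 scatters around equality.

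Because iCre and LacZ fibroblasts could differ before any ligand, the interaction of virus and ligand was fitted as well, which asks whether the response to the ligand itself differed. The response to IL-1β was smaller in iCre fibroblasts for 3 of the 9 genes, beside 4.95% of all genes. These were Lcn2 (log2 -2.27, SE 0.48, adjusted p = 0.00701), Saa3 (log2 -2.30, SE 0.66, adjusted p = 0.0425) and Vcam1 (log2 -1.05, SE 0.26, adjusted p = 0.0175). The Lcn2 call was lost without replicate 3 (adjusted p = 0.0982), and those of Saa3 and Vcam1 without replicate 1 (0.0926 and 0.0541), 3 (0.108 and 0.167) or 4 (0.183 and 0.15), so that 5 genes passed without replicate 2 and 0 without replicate 3. Of all 25210 genes, 525 passed as higher and 1203 as lower without replicate 2, and 143 and 454 without replicate 3. With the GC correction Lcn2 alone passed, as Saa3 gave log2 -2.33, adjusted p = 0.059 and Vcam1 log2 -0.59, adjusted p = 0.293. In 1 fit of all 40 libraries Lcn2 alone passed as well, with Saa3 at adjusted p = 0.0675 and Vcam1 at 0.14.

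With the replicate block the interaction with IL-1β passed for 7 genes, beside 16.9% of all genes in either direction. It added Hp (log2 -1.84, adjusted p = 0.0215), Ptx3 (log2 -1.40, adjusted p = 0.000522) and Icam1 (log2 -0.65, adjusted p = 0.000834) as weaker responses and Serpina3n as a stronger one (log2 0.93, adjusted p = 0.0015). Without the block Hp gave log2 -1.77, SE 0.62, adjusted p = 0.101 and Serpina3n log2 0.86, SE 0.59, adjusted p = 0.459. The IL-1β response of Serpina3n was 0.98 in LacZ and 1.86 in iCre fibroblasts on the log2 scale. Saa1 and Saa2, at or near 0 counts in iCre Con, did not pass (adjusted p = 0.935 and 0.696).

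For TNFα the response was smaller in iCre fibroblasts for 5 of the 9 genes, beside 7.7% of all genes. These were Ptx3 (log2 -4.48, SE 0.86, adjusted p = 0.00212), Saa3 (log2 -4.30, SE 0.81, adjusted p = 0.00186), Hp (log2 -2.50, SE 0.61, adjusted p = 0.0104), Icam1 (log2 -1.98, SE 0.49, adjusted p = 0.0103) and Vcam1 (log2 -1.82, SE 0.32, adjusted p = 0.00111). Without replicate 3 or 4 the calls of Hp (adjusted p = 0.0846 and 0.115) and Icam1 (adjusted p = 0.0912 and 0.0552) were lost, which left 3. Of all genes, 525 passed as higher and 835 as lower without replicate 3, and 727 and 991 without replicate 4. Lcn2, with log2 0.57, SE 0.58, adjusted p = 0.578, and Serpina3n, with log2 0.04, SE 0.78, adjusted p = 1, did not pass. The interaction passed for 0 genes with bFGF (edgeR, beside 0.0% of all genes). An unadjusted p under 0.05 was found for 0 of the 9 (beside 765 of all 25210 genes), and DESeq2 called 0 (beside 0.0%). With TGFβ it passed for 0 (edgeR, beside 4.51%), with 1 at an unadjusted p under 0.05 (beside 3839 of all genes). For TGFβ, Saa3 passed by DESeq2 (beside 8.68% of all genes) and with the replicate block (log2 2.42, adjusted p = 0.00249, beside 8.04%).

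Without ligand 0 of the 9 genes differed between iCre and LacZ fibroblasts by edgeR's quasi-likelihood test, beside 0.0754% of all genes. An unadjusted p under 0.05 was found for 3 (beside 3538 of all 25210 genes), and DESeq2 called 2 (Saa3 and Hp, beside 5.34% of all genes). Saa3 was 0.589, 1.53, 0.439 and 0.869 CPM in iCre Con and 2.05, 7.2, 1.37 and 4.62 CPM in LacZ Con (log2 -2.16, SE 0.57, adjusted p = 0.143), and Hp was 1.11, 3.03, 1.2 and 1.77 and 1.83, 11, 3.74 and 5.75 CPM (log2 -1.65, SE 0.52, adjusted p = 0.205). Every iCre library lay below the LacZ library of its number for both, although the groups overlapped. With the replicate block 4 genes were lower, beside 7.7% of all genes, namely Saa3 (log2 -2.06, adjusted p = 4.07e-06), Hp (log2 -1.55, adjusted p = 2.91e-05), Serpina3n (log2 -0.77, adjusted p = 8.33e-05) and Ptx3 (log2 -0.45, adjusted p = 0.0377). Vcam1 (log2 -0.04, SE 0.14, adjusted p = 0.94) and Icam1 (log2 -0.09, SE 0.32, adjusted p = 0.94) gave differences near 0 in both fits.

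With bFGF, 0 of the 9 genes differed by virus (edgeR, beside 0.0% of all genes). There 4 had an unadjusted p under 0.05 (beside 2585 of all 25210 genes) and DESeq2 called Hp (beside 1.91% of all genes). With the replicate block 5 were lower (beside 7.22% of all genes), which were Ptx3 (log2 -1.61, adjusted p = 1.15e-09), Serpina3n (log2 -0.99, adjusted p = 2.25e-07), Hp (log2 -1.63, adjusted p = 7.26e-05), Saa3 (log2 -1.32, adjusted p = 0.00277) and Lcn2 (log2 -0.95, adjusted p = 0.000185). With TGFβ, 0 differed as well (edgeR, beside 8.37%), with 2 at an unadjusted p under 0.05 (beside 5333 of all genes) and 0 by DESeq2 (beside 15.0%). There the block gave 3 lower genes (beside 11.1%), namely Ptx3 (log2 -1.19, adjusted p = 4.62e-06), Serpina3n (log2 -1.16, adjusted p = 3.55e-05) and Vcam1 (log2 -0.48, adjusted p = 0.000589), and the Vcam1 difference was 0.04 with the GC correction.

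Replicate numbers shaped the levels of several genes in the same way in most groups. Replicate 2 was the lowest library in 10 of 10 groups for Ptx3, Serpina3n and Icam1 and in 9 of 10 for Vcam1, whereas it was the highest for Saa3 in 7 groups and for Lcn2 in 6. In LacZ Con, for example, Serpina3n was 484 CPM in replicate 2 and 907 to 1359 CPM in the others. Marker sums also differed by replicate. Replicate 2 was the lowest in 10 of 10 groups for the pericyte sum, in 9 for the macrophage sum, in 8 for the cardiomyocyte sum and in 6 for the fibroblast sum, and their part in these levels was not tested.

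**Figure D4:**
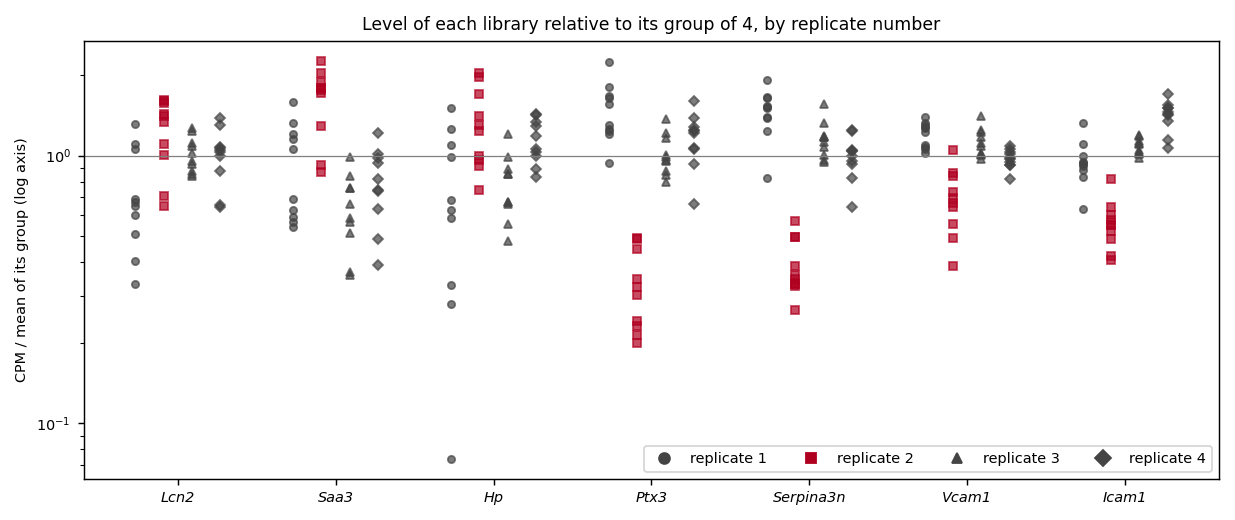
CPM of each library divided by the mean of its group, on a log axis, for 7 genes (without Saa1 and Saa2), with 10 points (1 per group) for each gene and replicate number. Replicate 2 lies below the mean in 10 of 10 groups for Ptx3, Serpina3n and Icam1, and Icam1 is highest in replicate 4 in 9 of 10 groups.

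The order of the 10 groups differed from gene to gene. Lcn2 was highest in LacZ IL-1β (2995 ± 833 CPM, SD, n = 4), then in iCre IL-1β (414 ± 122 CPM), and its other 8 group means, from 2.53 to 12.5 CPM, each overlapped the next. Saa3 and Hp shared one order at the top, LacZ IL-1β, LacZ TNFα and iCre IL-1β, each step without overlap, at 4475 ± 479 CPM, 1278 ± 684 CPM and 202 ± 86.6 CPM for Saa3 and 279 ± 11.2 CPM, 82 ± 27 CPM and 26.1 ± 11.3 CPM for Hp. Saa1 and Saa2 stood apart only in LacZ IL-1β (1.67 ± 0.298 CPM and 2.33 ± 0.404 CPM). Vcam1 and Icam1 were highest in LacZ TNFα (6041 ± 716 CPM and 907 ± 139 CPM) and lowest in iCre TGFβ (309 ± 79.5 CPM and 46.1 ± 19.4 CPM), with each later neighbour overlapping. Ptx3, from 1327 ± 487 CPM in LacZ TNFα down to 34.3 ± 19.6 CPM in iCre Con, and Serpina3n, from 2167 ± 859 CPM in iCre IL-1β down to 604 ± 264 CPM in iCre Con, had no neighbours that were separate.

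Levels per kilobase of exon used the joined exons of all annotated transcripts. These can exceed the length of the mRNA, and the order of the genes depends on that choice. By this measure Serpina3n was the highest of the 9 genes in every group but LacZ IL-1β. There Saa3 (1717 CPM per kb) and Lcn2 (1142 CPM per kb) exceeded its 931 CPM per kb. In LacZ Con, Serpina3n stood at 473 CPM per kb and Vcam1 at 77.1. With TNFα in LacZ fibroblasts Serpina3n (713), Vcam1 (681), Ptx3 (495) and Saa3 (490.3 CPM per kb) came within a narrow range.

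As a description over the 10 group means, which share libraries and carry no test, the level pattern of each gene was correlated with those of 11397 genes expressed in any group, on the log2 scale. Closest to Lcn2 were Zc3h12a (Pearson r = 0.989), Sprr2e (0.988) and Csf3 (0.976). Closest to Saa3 were Sod2 (0.986), Cxcl2 (0.985) and Nod1 (0.982), to Hp Chil1 (0.970), Serpina3i (0.970) and Chl1 (0.961), and to Ptx3 Zbtb7c (0.979), Acsl1 (0.978) and Tmem185a (0.968). Slc36a2 (0.995 with Saa1 and 0.996 with Saa2), Vnn3 (0.991 and 0.997) and Camp (0.967 and 0.965) were nearest to Saa1 and Saa2. Serpina3n was nearest to its neighbour Serpina3m (0.973), then Serpina3i (0.869) and Prg4 (0.862). Vcam1 was nearest to Parp8 (0.994), Adam17 (0.972) and Rbm47 (0.971), and Icam1 to H2-Q4 (0.976), Mgam (0.976) and H2-M3 (0.975). Among the 9 genes, r was 0.996 for Saa1 and Saa2, 0.949 for Vcam1 and Icam1, 0.946 for Saa3 and Hp, and 0.398 for Lcn2 and Vcam1.

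Other acute-phase genes moved with the same ligands. Of 37 such genes listed, 29 were tested, of which 12 rose and 1 fell with IL-1β in LacZ fibroblasts (beside 11.1% and 9.55% of all genes), and 12 rose and 1 fell with TNFα (beside 10.9% and 10.4%). The largest changes among those expressed were Saa4, a further serum amyloid gene (log2 7.43, adjusted p = 2.31e-05), Serpina3f (log2 4.82, adjusted p = 2.19e-05) and the metalloreductase Steap4 (log2 4.56, adjusted p = 7.36e-06) with IL-1β, and Serpina3f (log2 3.49, adjusted p = 0.000388) and the lipopolysaccharide-binding protein gene Lbp (log2 2.98, adjusted p = 3.02e-07) with TNFα. In iCre against LacZ fibroblasts, 7 of the 29 were lower and 0 higher under IL-1β (beside 8.98% and 7.14% of all genes), led by the heme scavenger hemopexin, Hpx (log2 -3.71, adjusted p = 1.38e-05), while 1 was higher and 10 lower with TNFα (beside 14.8% and 12.6%), led by Lbp (log2 -4.11, adjusted p = 0.000296). TGFβ in LacZ fibroblasts gave 2 higher and 6 lower (3 and 8 with the replicate block), while 36.9% of all genes changed (42.0% with the block), with Itih4 (log2 -3.78, adjusted p = 3.16e-05) changed most. Blocked by replicate number, 12 were lower and 1 higher in iCre than in LacZ fibroblasts under IL-1β (beside 14.9% and 14.6% of all genes), and 11 were lower and 0 higher without ligand (0 and 0 without the block), where 7.7% of all genes were lower.

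Of 22 other cell adhesion genes, all tested, 8 rose and 3 fell with IL-1β (beside 11.1% and 9.55% of all genes) and 8 rose and 4 fell with TNFα (beside 10.9% and 10.4%) in LacZ fibroblasts. P-selectin, Selp, and E-selectin, Sele, rose with both ligands (Selp log2 5.83, adjusted p = 5.49e-05 with IL-1β and log2 5.19, adjusted p = 0.000107 with TNFα, Sele log2 3.73, adjusted p = 5.49e-05 and log2 3.47, adjusted p = 4.64e-06). They rose with bFGF too (Selp log2 3.68, adjusted p = 0.00112, Sele log2 4.75, adjusted p = 0.000389), where 9 of the 22 rose and 1 fell, while 11.6% of all genes changed. Madcam1 changed most with TNFα (log2 8.92, adjusted p = 0.000114). In iCre against LacZ fibroblasts 5 were lower and 2 higher under IL-1β (7 and 5 with the replicate block), and 5 lower and 4 higher under TNFα. Of all genes, 8.98% were lower and 7.14% higher under IL-1β (14.9% and 14.6% with the block), and 12.6% and 14.8% under TNFα. Madcam1 (log2 -3.67, adjusted p = 0.00183) and the sialomucin Podxl (log2 2.48, adjusted p = 6.77e-05) moved opposite ways with TNFα.

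Among 24 receptors and binding partners of these proteins, of which 23 were tested, 9 rose and 1 fell with IL-1β and 8 rose and 3 fell with TNFα in LacZ fibroblasts, beside 11.1% and 9.55% of all genes with IL-1β and 10.9% and 10.4% with TNFα. When blocked by replicate number, 11 rose and 5 fell with IL-1β, beside 16.3% and 17.3% of all genes. Tlr2, a receptor reported to bind serum amyloid A, rose most with each (log2 3.80, adjusted p = 4.43e-07 and log2 4.69, adjusted p = 2.39e-07) and was lower in iCre fibroblasts (log2 -2.82, adjusted p = 3.1e-05 with IL-1β and log2 -3.79, adjusted p = 0.000204 with TNFα). Mmp9, which forms a complex with lipocalin 2, and Tnfaip6, which binds hyaluronan and pentraxin 3, also rose with both (Mmp9 log2 2.52, adjusted p = 0.00117 and log2 2.95, adjusted p = 5.7e-05, Tnfaip6 log2 1.40, adjusted p = 0.000731 and log2 1.67, adjusted p = 6.48e-05). Between the viruses, IL-1β left 2 of the 23 higher and 6 lower in iCre fibroblasts (beside 7.14% and 8.98% of all genes), and TNFα 4 higher and 6 lower (beside 14.8% and 12.6%).

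Known regulators of the acute-phase response moved with both ligands. Of 24 listed, 23 were tested, and 16 rose and 1 fell with each of IL-1β and TNFα in LacZ fibroblasts, where 11.1% and 10.9% of all genes rose and 9.55% and 10.4% fell. The cytokine gene Il6 rose more with IL-1β (log2 7.04, adjusted p = 1.59e-06) than with TNFα (log2 2.93, adjusted p = 8.26e-06, difference log2 4.10, adjusted p = 7.85e-06), as did the NF-κB cofactor gene Nfkbiz (log2 2.86, adjusted p = 1.12e-05 with IL-1β, difference log2 2.57, adjusted p = 1.07e-06), whereas Irf1 was lower with IL-1β than with TNFα (log2 -2.11, adjusted p = 9.27e-05). In iCre against LacZ fibroblasts, Il6 was lower with IL-1β (log2 -2.50, adjusted p = 0.00559), while Il11 was higher with both (IL-1β log2 2.69, adjusted p = 0.0119, TNFα log2 5.05, adjusted p = 0.000657). In all, 9 of the 23 were lower under IL-1β and 2 higher (beside 8.98% and 7.14% of all genes), and 11 were lower under TNFα and 3 higher (beside 12.6% and 14.8%).

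Since several of these proteins are also made by leukocytes, endothelium and liver, marker genes of those and other heart cells were read in the same libraries. The 8 neutrophil markers, 7 of them tested, summed to 0.201 to 0.395 CPM in LacZ Con, 10.0 to 14.1 CPM in LacZ IL-1β, 1.09 to 1.63 CPM in iCre IL-1β, 1.48 to 2.37 CPM in LacZ TNFα and 0.273 to 0.785 CPM in iCre TNFα. The neutrophil sum was lower in iCre than in LacZ libraries in 4 of 4 pairs with each of these ligands. Camp, at up to 12.7 CPM, made up most of it, S100a9 had 0 counts in all 40 libraries and Ly6g in 35. The 6 macrophage markers summed to 49.9 to 145 CPM in LacZ Con, 47.3 to 158 CPM in LacZ IL-1β and 33.7 to 108 CPM in iCre IL-1β, and to 28.2 to 80.9 CPM in iCre Con. Between libraries of the same number this sum was lower in iCre fibroblasts in 4 of 4 pairs without ligand and with bFGF and in 3 of 4 with each other ligand. The 6 endothelial markers summed to 25.3 to 26.4 CPM in LacZ Con, 6.65 to 9.85 CPM with IL-1β and 9.45 to 16.8 CPM with TNFα. With TGFβ the sum was 6.87 to 8.92 CPM. In iCre fibroblasts this sum was 11.1 to 18.8 CPM in Con, 8.64 to 12.3 CPM with IL-1β and 10.8 to 17 CPM with TNFα. Of the 4 hepatocyte markers, Ttr had 0 counts in all libraries, Alb was at most 0.217 CPM, Apoa1 had 31 counts in all, and Ahsg made up nearly all of the sum. It was 4.1 to 34.6 CPM in LacZ Con and 8.15 to 26.6 CPM in iCre Con, 3.56 to 6.66 against 11.9 to 33.2 CPM with IL-1β and 0.455 to 1.92 against 1.95 to 6.03 CPM with TNFα, higher in iCre in 4 of 4 pairs with each of these ligands and with bFGF. The 4 pericyte markers, with Rgs5 and Cspg4 the most abundant, summed to 106 to 557 CPM in LacZ Con, 255 to 772 CPM with IL-1β and 71.9 to 368 CPM with TNFα, and to 287 to 896, 398 to 948 and 302 to 1156 CPM in the same iCre groups. The pericyte sum was higher in iCre than in LacZ libraries in 4 of 4 same-numbered pairs under each ligand and without one. The 4 cardiomyocyte markers summed to 17.3 to 112 CPM in LacZ Con, 1.17 to 2.63 CPM with IL-1β and 2.62 to 7.7 CPM with TNFα, and to 7.68 to 44.8, 3.4 to 17 and 1.33 to 20.3 CPM in iCre fibroblasts, mostly Tnnt2, while Myh6 had 0 counts in 37 libraries. The 6 mesothelial markers summed to 5.38 to 7.44 CPM in LacZ Con and 2.06 to 2.85 CPM with IL-1β, and to 4.39 to 11.8 and 3.33 to 8.05 CPM in iCre fibroblasts. The part of these cells in the levels of the 9 genes was not tested.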

How the data were processed

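Poly(A) RNA from 40 libraries was examined as raw counts per gene, which the authors deposited after quality checks with FastQC 0.10.1, alignment with STAR to mm10 and counting with HTSeq 0.10.0 (versions per the labels). Labels and paper name different library kits, and the strand setting is not given in the sources used here. Gene names and positions came from GENCODE M21 (GRCm38), which held 52133 of the 55414 identifiers and 99.6% of counts. The 9 genes and all lists were chosen with earlier results of these data known.

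Genes with at least 10 counts in total (25210) were fitted with edgeR 4.0.16 quasi-likelihood tests (R 4.3.3, TMM scaling). Each comparison used only its own 8 libraries, or 16 for an interaction, with Benjamini-Hochberg adjustment over all genes and a threshold of 0.05. The tests were checked on simulated data. CPM are TMM-scaled. The median log2 change of all genes shifted by up to -0.17 (TGFβ in LacZ). Pattern correlations used log2(CPM + 0.5). Genes of each list were named as the 3 largest changes past the threshold with a mean of at least 1 CPM over the libraries compared, and the text gives a selection of them.

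Deviations from group means correlated between libraries of the same replicate number at 0.598 on average (lowest 0.300, 10774 genes) and at -0.164 between different numbers. The numbers were therefore taken to pair the libraries across groups, as a pattern in the data, since the labels name no shared animal or day (library names set replicate 1 apart from the others). Alternatives were the replicate block, DESeq2 1.42.0, its size factors, no filter on low counts or edgeR's own filter, all 40 libraries in 1 fit, a correction for GC content, and leaving out each replicate. Promoter sequences are from RefSeq (GRCm38.p6). Figures were drawn with matplotlib 3.10.9.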

Additional observations from a re-analysis of the deposited data

Results flagged for a closer look

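Among the 90 sets of 4 libraries (9 genes in 10 groups), 11 held a library far from the other 3, where chance alone gives about 1 set in 20 for continuous values. That rate does not apply to 5 of the 11, sets of Saa1 or Saa2 in which the other 3 libraries had 0 counts. Those at the edge of detection were Saa1 replicate 2 in LacZ Con (0.176 CPM), replicate 1 in iCre Con (0.0327 CPM) and replicate 2 in iCre TGFβ (0.0740 CPM), and Saa2 replicate 2 in LacZ Con (0.132 CPM), replicate 2 in LacZ bFGF (0.176 CPM) and replicate 4 in iCre TGFβ (0.0277 CPM), each the highest of its group. Saa1 replicate 2 in LacZ IL-1β was also highest, at 2.12 CPM against 1.49 CPM in the lowest, and Saa3 replicate 2 in LacZ TGFβ, at 4.30 CPM. The lowest of their groups were Hp replicate 1 in LacZ TGFβ (0.745 CPM), Serpina3n replicate 2 in iCre Con (209 CPM) and Vcam1 replicate 2 in iCre Con (490.2 CPM). Replicate 2 accounts for 8 of these 11 libraries.

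The response to a ligand differed between iCre and LacZ fibroblasts by the test of the interaction itself for 8 combinations. With IL-1β the log2 differences were -2.27 for Lcn2, -2.30 for Saa3 and -1.05 for Vcam1, and with TNFα they were -4.30 for Saa3, -2.50 for Hp, -4.48 for Ptx3, -1.82 for Vcam1 and -1.98 for Icam1. For IL-1β the count was 0 without replicate 3, 1 after GC correction or in 1 fit of all 40 libraries, and 7 under the replicate block. For TNFα it was 3 without replicate 3 and 5 in each of those other fits. Over all genes the IL-1β interaction passed for 696 higher and 1247 lower as reported. In those fits, in the same order, it passed for 143 and 454, 495 and 534, 719 and 1252, and 1992 and 2263. The TNFα interaction passed for 2113 higher and 1941 lower as reported. Then it passed for 525 and 835, 1774 and 1301, 2104 and 2035, and 3334 and 2999. For Lcn2 with TNFα the response was log2 1.72 in LacZ and 2.30 in iCre fibroblasts, and the interaction did not pass (log2 0.57, SE 0.58, adjusted p = 0.578).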

How the results depend on the processing

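Of 162 differences (9 genes in 18 comparisons), the 107 that were called with or without the replicate block or concerned IL-1β or TNFα (interactions of Saa1 and Saa2 left out) were recomputed under up to 12 alternatives, and those of Saa1 and Saa2 summed were added. Of the resulting values, 1118 kept their direction and their side of the threshold, 103 passed only under the alternative, 56 no longer passed and 12 changed sign, and the causes were not tested. The sign changes were Vcam1 in iCre TGFβ against LacZ TGFβ with the GC correction (0.039, and 0.040 with the block as well), the Serpina3n interaction with TNFα with DESeq2's size factors (-0.0053), DESeq2 (-0.0053) and the GC correction (-0.076, or -0.12 with the block), and the following differences when a replicate was left out. Ptx3 in iCre TNFα against iCre Con ranged from -0.13 (without replicate 1) to 0.98, Lcn2 in iCre TNFα against LacZ TNFα from -0.16 to 0.087 (0.0054 without replicate 1, 0.087 without replicate 4), and the Serpina3n interaction with TNFα from -0.33 (without replicate 1) to 0.38, and below 0 without replicate 1, 2 or 3.

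The numbers of the 9 genes called moved in 8 comparisons with the replicate block. With it the counts were 5 for LacZ TGFβ (2 without it), 5 for LacZ bFGF (1), 3 for iCre bFGF (0), 4 for iCre against LacZ without ligand (0), 5 with bFGF (0) and 3 with TGFβ (0), and 7 and 1 for the interactions with IL-1β (3) and TGFβ (0). Of all genes, in the same order, 42.0%, 27.3%, 16.7%, 14.5%, 13.9%, 20.8%, 16.9% and 8.04% were called with the block. Without it the shares were 36.9%, 11.6%, 2.42%, 0.0754%, 0.0%, 8.37%, 7.71% and 4.51%. The block changed no other count by over 1.5 times, and the calls it added or lost are named in the report. With the block and the GC correction these counts were 5, 5, 2, 5, 5, 2, 7 and 1. Of all 24970 genes in that fit, in the same order, 4898 were higher and 5701 lower, 3124 and 3657, 2060 and 2054, 1752 and 1958, 1781 and 1733, 925 and 1412, 1503 and 1567, and 280 and 394. With the GC correction alone the interaction with IL-1β had 1, beside 495 higher and 534 lower of all 24970 genes. With all 40 libraries in 1 fit, LacZ TGFβ had 0, LacZ bFGF 2, iCre bFGF 1 and the interaction with IL-1β 1. Of all 25210 genes, in the same order, 4685 were higher and 5488 lower, 2364 and 1704, 1032 and 490, and 719 and 1252. DESeq2 gave 3 for LacZ bFGF, 1 for iCre bFGF, 2 for iCre against LacZ without ligand, 1 with bFGF, and 1 for the interaction with TGFβ. Of all genes DESeq2 called 18.5%, 7.93%, 5.34%, 1.91% and 8.68% in the same order.

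Leaving out each replicate in turn gave 8 to 9 genes for LacZ IL-1β, 5 to 7 for LacZ TNFα, 0 to 4 for LacZ TGFβ, 0 to 3 for LacZ bFGF and 6 to 8 for LacZ IL-1β against LacZ TNFα. In iCre fibroblasts it gave 4 to 8 for IL-1β, 3 to 5 for TNFα, 2 to 4 for TGFβ and 0 to 1 for bFGF. For iCre against LacZ it gave 0 to 2 without ligand, 0 to 1 with bFGF, 0 to 3 with TGFβ, 5 to 8 with IL-1β and 5 to 7 with TNFα, and for the interactions 0 to 5 (IL-1β), 3 to 5 (TNFα), 0 to 2 (TGFβ) and 0 to 0 (bFGF). The calls over all 25210 genes moved as well. LacZ bFGF had 2462 genes higher and 2133 lower without replicate 2, and 222 and 110 without replicate 3. For iCre bFGF these were 1783 and 1410 without replicate 2 and 0 without replicate 1, 3 or 4. For iCre against LacZ without ligand they were 380 and 321 without replicate 2 and 0 without replicate 3 or 4. LacZ TGFβ had 4494 and 4860 without replicate 2 and 3313 and 3219 without replicate 3. Low counts limit the precision of Saa1 and Saa2, with 322 and 423 in all.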
